A study of Mus musculus with 4 samples.

Results

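Genes that carry iron, zinc and copper into, through and out of cells were examined in the small intestine of 1-month-old mice. The set holds every gene whose symbol begins with Slc30a or Slc39a, the 2 zinc transporter families, together with 16 genes chosen by name for iron, copper and metal storage. Membership follows from the symbol and not from a threshold on a measured value, although the set was chosen with earlier results of these data known. The platform annotation names 34 such genes among 12393, 11 of them assigned here to iron, 20 to zinc and 3 to copper. They are measured by 52 probe sets, and each gene is represented by the probe set with the highest mean over the 4 arrays.

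The study compared 2 null animals with 2 controls, 1 Affymetrix array per mouse, and asked what changes in the gut when HNF4, a nuclear receptor of gut and liver epithelium, is removed. Each group held 1 male and 1 female. Both null animals are given as HNF4 loxP/- with villin cre, although the strain entry of the null female says no more than null. The control female was HNF4 loxP/+ with villin cre, and the control male HNF4 loxP/- without Cre, so that sex and genotype cannot be told apart between the controls. A loxP allele was thus common to all 4 animals, while the minus allele and the Cre were each present in 3. Villin drives Cre in the intestinal epithelium, whereas the RNA came from small intestine without further separation in the labels. In such bulk tissue, fewer cells of a type and less RNA per cell cannot be told apart. The labels do not give the paralogue that was targeted, and all 4 Hnf4a probe sets differed by 0.08 to 0.32 on the log2 scale, null minus control, none of them lower, so these values do not check the null labels. p-values set a difference against an error that is estimated from these few animals and moderated over all probe sets tested. The number of arrays limits their precision, and the spread within a group also holds the difference between its male and its female.

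Iron enters the enterocyte after reduction at the brush border, passes through the divalent metal transporter, is stored in ferritin and leaves through ferroportin at the base of the cell. Iron regulatory proteins adjust these steps by binding stem-loops in messenger RNA. Zinc is brought into the cytosol by the ZIP family, whose genes are named Slc39a, and removed to vesicles or the outside by the ZnT family, Slc30a. Metallothioneins bind zinc and copper, and their genes are switched on by zinc through the metal-responsive factor MTF1. Copper enters through a high-affinity channel and is exported by copper-pumping ATPases.

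Values are deposited intensities, or log2(intensity + 16) after quantile normalization, and a difference is null minus control on that log2 scale. Intensities are given for the male first and then the female of each group. The null male stood apart before normalization, with a median intensity of 43.2 where the other arrays had 49.5 to 53.3, and its correlation with the null female was 0.927 against 0.963 between the controls. As a guide to background, 9 probe sets for Y-linked genes in the females or Xist in the males read up to 34.4. At least 1 array lay at or below that level for 5 of the 34 genes, Cybrd1, Slc40a1, Hfe, Slc39a6 and Slc39a13. Absorptive enterocyte markers were bright on every array, with Fabp1 between 5753 and 6805 and Vil1 between 1343 and 2335, and the hepatocyte marker Alb read 17.9 to 42.8.

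No gene for iron, zinc or copper handling passed the threshold of an adjusted p of 0.05 in limma, where 2 of all probe sets tested (0.0126%) passed. The 3 genes with the smallest p were Aco1 and Mt2, both lower in the null animals, and Slc39a8, higher in them. These 3 were also the 3 of 34 genes with a difference of at least 0.5 in either direction, a size that 6.95% of all genes tested reached. An unadjusted p under 0.05 was found for the same 3, against 3.2% of all genes. The median difference over the 34 genes was 0.003, with 16 of 34 below 0, against a median of 0.001 and 49.7% below 0 over all genes. After normalization, null and control arrays did not overlap for 8 of 34 genes. Those higher in the null animals were the 5 genes Slc11a2, Slc39a3, Slc39a8, Slc39a13 and Slc39a14, and those lower the 3 genes Aco1, Ireb2 and Mt2. The deposited intensities of Slc11a2, Slc39a3 and Slc39a14 did overlap. Over all genes the share was 29.6%, made up of 14.4% higher and 15.2% lower, so the members' counts lie near or below the background. For 28 of the 34 the 95% interval lay within 1 of 0, so that a 2-fold change on this scale lay outside it, as for 80.1% of all genes. The exceptions were Slc40a1, Aco1, Slc39a6, Slc39a8, Slc30a9 and Mt2.

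**Figure D1:**
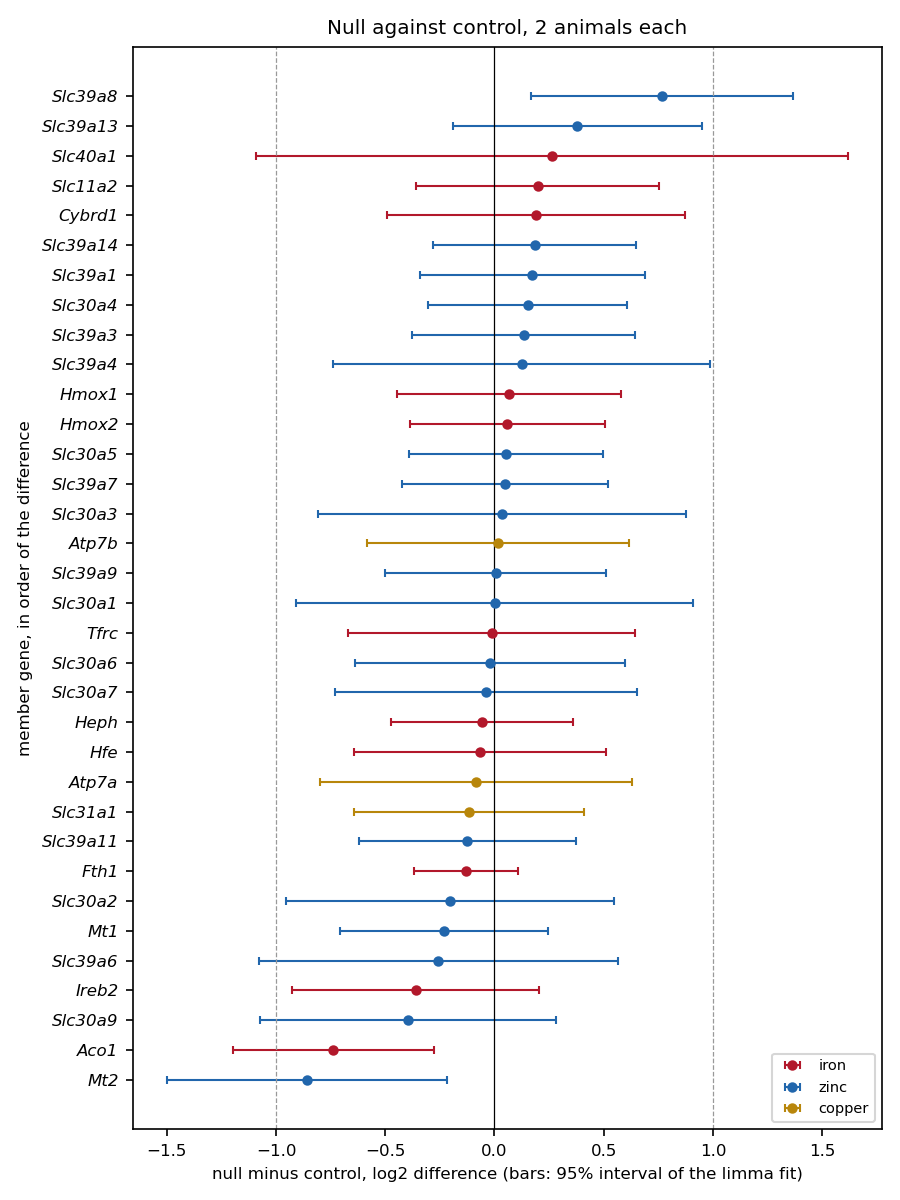
Null minus control difference of each of the 34 genes on the log2(intensity + 16) scale (x axis), in order of size (y axis), with points coloured by metal and bars for the 95% interval of the limma fit over 2 null and 2 control animals. Dashed lines mark a difference of 1. The intervals of Mt2, Aco1 and Slc39a8 leave out 0, and none of the 34 genes has an adjusted p under 0.05.

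Iron entry genes gave small differences. Cybrd1, the brush border ferric reductase, read 26.9 and 55.2 in the null mice against 39.7 and 28.7 in the control male and female. The groups overlapped, and both lay near the background level, with a difference of 0.19 (95% interval −0.49 to 0.87). Slc11a2, the divalent metal transporter DMT1, read 55.7 and 63.9 in null animals against 45.5 and 58.9 in controls, a difference of 0.20 on its brightest probe set (95% interval −0.36 to 0.76). The deposited values overlapped, and the null arrays were higher after normalization. Its other 2 probe sets gave −0.08 and 0.03, so the probe sets did not share a direction. Tfrc, the transferrin receptor that takes up iron from blood, read 446 in the null male and 831 in the null female, on either side of 603 and 664 in the controls. Its difference was −0.01 (95% interval −0.67 to 0.64), and the other 2 Tfrc probe sets gave 0.13 and −0.28.

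Iron exit was measured by 2 genes. Heph, hephaestin, is the copper-containing oxidase that works beside ferroportin. It read 396 and 402 in the null animals and 394 and 462 in the controls, a difference of −0.06 (95% interval −0.47 to 0.36). Slc40a1, ferroportin itself, had the widest gap between the null animals of the 34 genes. It read 19.4 in the null male and 139 in the null female, against 51.6 and 44.9 in the control male and female. The difference of 0.26 therefore had a standard error of 0.57 and an interval from −1.09 to 1.62. Its dimmer probe set, which did not pass the filter on dim probe sets, read 8.26 and 32.3 in null animals against 17.0 and 14.6. On both probe sets the null male was the lowest array and the null female the highest. On the same arrays the median of 6 smooth muscle markers was −0.23 between the males and 0.68 between the females. Between the males 4 were lower and 2 higher, and between the females 1 was lower and 5 higher. Actg2 had the widest gap, at 82.3 in the null male and 389 in the null female. Acta2, the brightest of the smooth muscle markers, went the other way, with 0.19 between the males and −0.05 between the females. Des was higher in both pairs, at 0.26 and 0.75. The part of these cells in the Slc40a1 values was not tested.

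The genes that control iron were Aco1, Ireb2 and Hfe, and none passed. Aco1 encodes cytosolic aconitase, which becomes iron regulatory protein 1 when it loses its iron-sulphur cluster. It read 667 and 505 in the null mice against 1075 and 931 in the control male and female, and both null arrays lay below both controls. The difference was −0.74 (SE 0.19, 95% interval −1.20 to −0.28), which is 1.67-fold lower, with an unadjusted p of 0.00709 and an adjusted p of 1 in limma. This probe set is named as one that may cross-hybridize. The second, which is not, read 161 and 186 in null animals against 323 and 271 in controls. That probe set differed by −0.68 (SE 0.20), again without overlap. The Aco1 difference was −0.61 between the males and −0.86 between the females, and it stayed between −0.95 and −0.52 when single arrays were left out. Ireb2, the gene of iron regulatory protein 2, read 87.4 and 122 in null animals against 163 and 123 in controls. The null female and the control female were nearly level, and the difference of −0.36 had an interval from −0.92 to 0.21 that includes 0. It was −0.17 without the control male and −0.55 without the control female. Hfe, the haemochromatosis protein that interacts with the transferrin receptor, read 33.9 and 50.8 in the null animals and 50.9 and 41.4 in the controls, a difference of −0.07.

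Storage and haem genes gave differences between −0.13 and 0.07. Fth1, the ferritin heavy chain, read 3815 and 4156 in null animals against 4413 and 4303 in controls. Both null values lay below both controls as deposited, while after normalization the females were level. Its difference of −0.13 had a standard error of 0.10 and an interval from −0.37 to 0.11, and the second Fth1 probe set gave 0.06. Hmox1, the inducible haem oxygenase that frees iron from haem, read 78.3 and 85.3 against 81.2 and 78.8, a difference of 0.07. Hmox2, the constitutive form, read 314 and 302 against 310.0 and 294, a difference of 0.06. Null and control arrays overlapped for both haem oxygenases, and the 95% intervals ran from −0.44 to 0.58 and from −0.39 to 0.50.

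**Figure D2:**
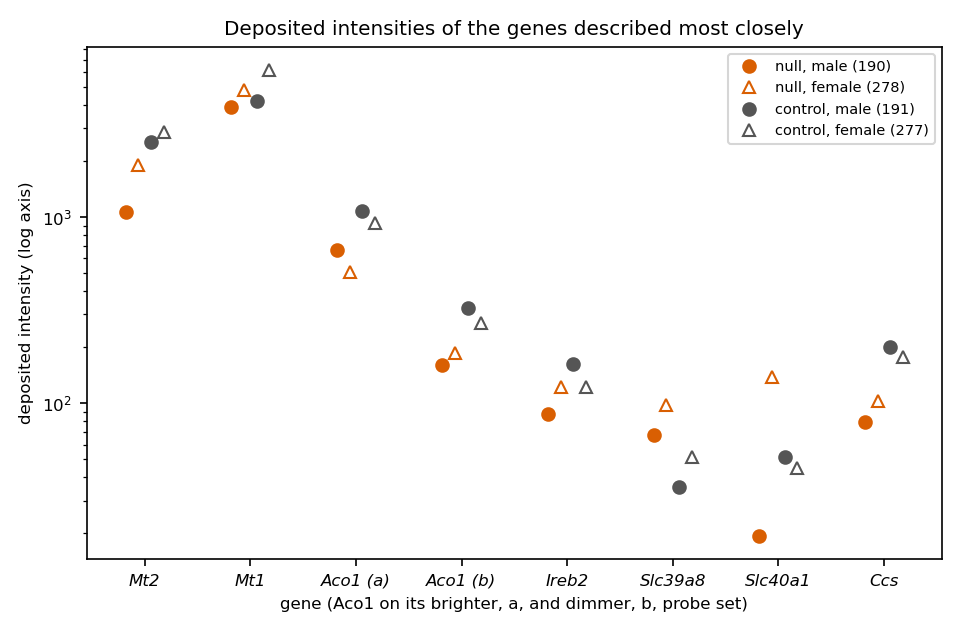
Deposited intensity on a log axis (y) of 7 probe sets of member genes and of Ccs (x), with 1 point per animal, filled circles for males, open triangles for females, orange for null and grey for control. Aco1 is shown on both probe sets. Both null points lie below both control points for Mt2, Aco1, Ireb2 and Ccs and above them for Slc39a8, while the 2 null points of Slc40a1 lie at 19.4 and 139 on either side of the controls.

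Metallothioneins are small cysteine-rich proteins that buffer zinc and copper. Mt2 had the largest difference of the 34 genes. It read 1068 and 1904 in the null mice against 2545 and 2875 in the control male and female, and the groups did not overlap. The difference was −0.86 (SE 0.27, 95% interval −1.50 to −0.22), which is 1.81-fold lower, with an unadjusted p of 0.0162 and an adjusted p of 1 in limma. It was −1.20 between the males and −0.52 between the females. It was −0.42 without the null male and −1.31 without the null female. Mt1, its neighbour on chromosome 8, read 3929.54 and 4824 in null animals against 4230.45 and 6159 in controls. Its arrays overlapped, because the null female lay above the control male, and the difference was −0.23 (95% interval −0.71 to 0.25). The value was −0.16 between the males and −0.30 between the females, and 0.04 without the female control. The second Mt1 probe set read 19.3 to 51.1 and differed by −0.26, with 0.51 between the males and −1.02 between the females. The larger Mt2 difference beside that of Mt1 was not tested as such.

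Metallothionein promoters hold metal response elements, short sites that MTF1 binds, and the sequences are shown because both genes stood on the lower side. RefSeq windows of build GRCm38.p6, from 250 bases before to 50 bases after each start, were found for 27 of the 34 genes, 34 windows in all. The core was searched on both strands as TGCACNC or TGCGCNC, and the HNF4 element as CAAAGTCCA or CAAAGTTCA. The metal core was present in 16 of the 34 windows, against 25.7% of all 32851 windows. At least 3 matches were present in 1.97% of all windows, and among the members in those of Mt2, Mt1 and Slc30a4. An HNF4 element was found in 0.861% of all windows and in 1 member window, that of the second listed start of Slc30a3. A match describes letters only and shows no binding. The Mt2 stretch lies at chr8:94172368-94172617, the Mt1 stretch at chr8:94178839-94179088 and that before the second listed start of Slc39a8 at chr3:135825407-135825656, all on the plus strand. Each is the 250 bases before the start, 5′ to 3′, with matches to the metal core on either strand in capitals.
Mt2: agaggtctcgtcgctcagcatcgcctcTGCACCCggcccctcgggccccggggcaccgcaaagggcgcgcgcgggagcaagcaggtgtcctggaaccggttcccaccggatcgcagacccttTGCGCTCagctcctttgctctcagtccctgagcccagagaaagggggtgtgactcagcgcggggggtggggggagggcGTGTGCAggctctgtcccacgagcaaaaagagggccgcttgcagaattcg
Mt1: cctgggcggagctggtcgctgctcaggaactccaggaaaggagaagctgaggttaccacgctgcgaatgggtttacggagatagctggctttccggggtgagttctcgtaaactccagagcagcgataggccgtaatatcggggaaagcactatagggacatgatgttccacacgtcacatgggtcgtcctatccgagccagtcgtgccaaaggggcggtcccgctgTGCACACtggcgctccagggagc
Slc39a8: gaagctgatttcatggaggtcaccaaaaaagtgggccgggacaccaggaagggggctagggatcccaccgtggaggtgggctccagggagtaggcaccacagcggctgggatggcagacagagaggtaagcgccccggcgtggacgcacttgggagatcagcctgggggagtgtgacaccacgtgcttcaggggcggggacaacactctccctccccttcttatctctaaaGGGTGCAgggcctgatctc
In Mt2 the matches begin at positions −223, −128 and −50 from the start, the last on the minus strand, and a further match lies after the start. In Mt1 the match shown begins at position −23, and 2 more lie after it. The first listed Slc39a8 window held no match, and the Aco1 window held 1, after the start.

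The ZIP transporters, which bring zinc into the cytosol, were measured for 10 Slc39a genes. Of these, 8 had a difference above 0 and 2 below, with a median of 0.13, and none passed the threshold in limma. Over all genes 49.7% were below 0. That split of 8 and 2 stayed the same whether arrays were quantile normalized or scaled to a common median. Without any normalization 1 of the 8, Slc39a9, stood below 0. On leaving out an array the split was less stable, as Slc39a1, Slc39a4, Slc39a6, Slc39a7 and Slc39a9 each changed sign in at least 1 such fit. Slc39a8, ZIP8, which imports zinc, manganese and iron, read 67.4 and 98.4 in the null mice against 35.5 and 51.6 in the control male and female. Both null arrays lay above both controls, and the control male lay just above the background guide. Its difference was 0.77 (SE 0.25, 95% interval 0.17 to 1.37), or 1.70-fold, at an unadjusted p of 0.0194 and an adjusted p of 1 in limma. It was 0.84 between the males and 0.70 between the females. The size depended on the pseudocount, from 0.97 with 1 to 0.47 with 64. The second Slc39a8 probe set was too dim to test, reading 10.9 and 38.5 in null animals against 24.2 and 10.2 in controls, with overlap.

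Of the other ZIP genes, Slc39a13, which acts in the secretory pathway, read 44.1 and 47.1 in null animals against 35.1 and 30.1, without overlap, although 1 control lay below the background guide. Its difference was 0.38 in each pair, and the interval of −0.19 to 0.95 includes 0. Slc39a4, ZIP4, is the main importer of dietary zinc at the brush border. It read 45.9 in the null male and 134 in the null female, on either side of 70.9 and 79.3 in the controls, so its difference of 0.13 had an interval from −0.74 to 0.99. Slc39a14, ZIP14, which imports zinc, iron and manganese, gave 0.18 on its brighter probe set, at 212 and 268 against 203 and 228, and −0.18 on the other. The null arrays of the brighter one were higher only after normalization. Slc39a6 read 17.4 and 50.8 in null animals against 32.6 and 54.7, an overlap, with a difference of −0.26 and of 0.07 on its other probe set. Slc39a1, Slc39a3, Slc39a7, Slc39a9 and Slc39a11 lay between −0.12 and 0.17. Slc39a7, which releases zinc from the endoplasmic reticulum, read 170.3 and 196 against 170.0 and 195, with both males below both females.

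The ZnT transporters, which remove zinc from the cytosol, divided evenly, with 4 of 8 Slc30a genes above 0 and 4 below, a median of −0.01, and none passing in limma. None of the 8 had the same sign between the males as between the females, where 48.2% of all genes did. Opposite signs force null and control arrays to overlap, so each of the 8 genes overlapped. Over all genes 29.6% did not overlap. Slc30a1, ZnT1, the exporter of the plasma membrane and like the metallothioneins a target of MTF1, read 139 and 66.8 in the null mice against 87.4 and 115 in the control male and female. Its 2 null values lay outside the controls on opposite sides, and the difference was 0.00 (95% interval −0.91 to 0.91). Slc30a2, ZnT2, which loads zinc into secretory granules, read 93.8 and 210.2 against 153 and 193, a difference of −0.20 (95% interval −0.95 to 0.55). Slc30a9, a transporter of mitochondria, read 46.8 and 70.9 against 108 and 65.0. Its null male was the lowest array and its control male the highest, with a difference of −0.40 (95% interval −1.07 to 0.28). That value was −0.08 without the control male and −0.71 without the control female. Slc30a3 to Slc30a7 ranged from −0.04 to 0.15, among them the Golgi transporters Slc30a5 at 0.05 and Slc30a6 at −0.02.

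Copper was represented by 3 genes. Slc31a1, the copper importer CTR1, read 179 and 268 in the null mice against 262 and 233 in the control male and female. The null male was the lowest array, and the other 3 lay between 233 and 268. The difference was −0.12 (95% interval −0.64 to 0.41), with −0.27 on the second probe set. Atp7a, the ATPase that passes copper out of the enterocyte, read lowest in the null male and highest in the null female, at 48.1 and 110.3 against 78.1 and 87.6, a difference of −0.08 (95% interval −0.80 to 0.63). Atp7b, the related ATPase best known from the liver, read 72.3 and 61.8 against 75.3 and 62.1, with a difference of 0.02 (95% interval −0.58 to 0.61) and overlapping arrays.

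**Figure D3:**
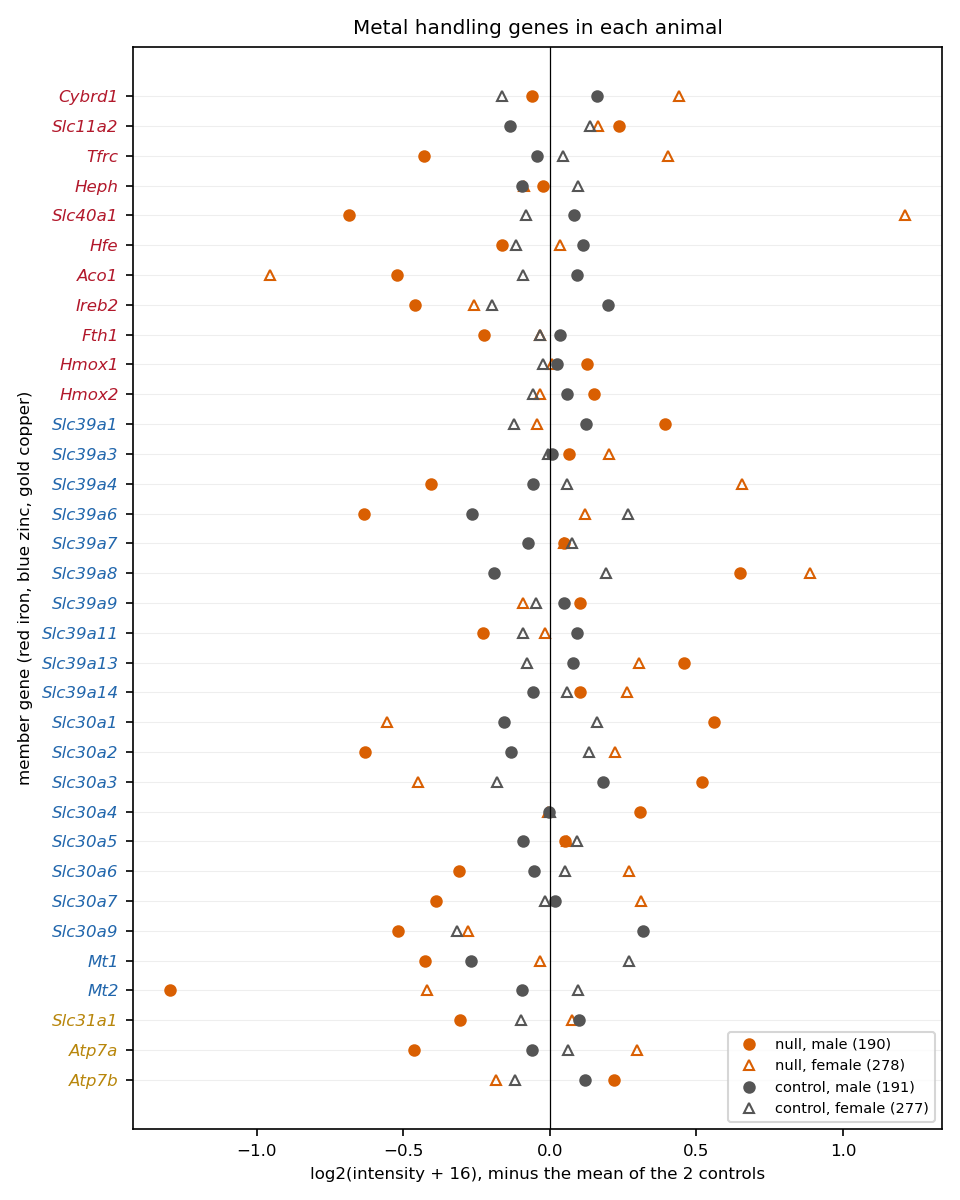
Level of each of the 34 genes in each animal as log2(intensity + 16) minus the mean of the 2 controls (x axis), genes by metal and role (y axis), circles for males and triangles for females, orange for null and grey for control. The 2 null points lie far apart and on either side of the controls for Slc40a1, Slc30a1, Slc39a4 and Tfrc. They lie on the same side of both controls for Aco1, Mt2 and Slc39a8, although those of Mt2 are far apart as well.

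The null male was the lowest of the 4 arrays for 16 of 34 genes, or 47.1%, against 32.8% over all genes. It was the highest for 10, or 29.4%, against 32% over all genes. The null female was lowest for 6, or 17.6%, against 26.4%, and highest for 11, or 32.4%, against 27.4%. The sign was the same between the males and between the females for 13 of 34 genes, against the same 48.2% of all genes. The median over the set was −0.19 between the males and 0.04 between the females. Without the null female the median over the 34 genes was −0.112, and without the null male it was 0.04. An unadjusted p under 0.05 was found for 6 of the 34 genes without the null male, where 8.99% of all genes had one, and for 6 without the null female, where 16.8% did. It was found for 2 without the control female and for 2 without the control male, where 1.56% and 1.42% of all genes had one. In each of these fits 1 group is a single array, which is assumed to vary like the group that remains, so the counts are no measure of the metal genes. With sex as a block in the model, 0 of 34 genes passed in limma, against 0.183% of probe sets, and Mt2 came closest with an adjusted p of 0.0672 in limma, followed by Aco1 at 0.124. In that fit 4 of 34 had an unadjusted p under 0.05, the 3 above and Mt1, against 5.34% of all genes.

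**Figure D4:**
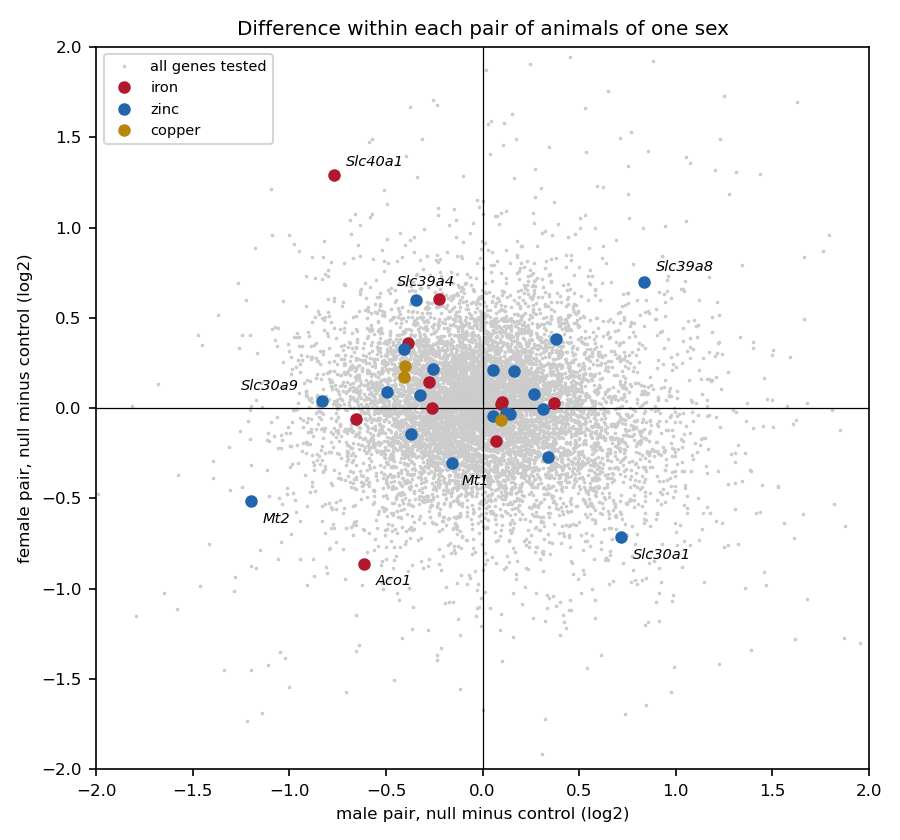
Null minus control difference on the log2 scale within the male pair (x axis) and within the female pair (y axis), for all genes tested (grey; 36 genes beyond 2 on either axis are not drawn) and for the iron, zinc and copper genes (coloured). Mt2 and Aco1 lie in the lower left and Slc39a8 in the upper right, with the same sign in both pairs, while Slc40a1 and Slc30a1 lie in the opposite corners.

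Further genes of metal metabolism were taken from lists chosen by function, and none passed the threshold in limma. Iron transport, storage and control was tested for 20 genes besides the members, with a median of 0.15, and 14 above 0. Its smallest p values belonged to the plasma ferroxidase ceruloplasmin, Cp, at 0.67 (SE 0.30), to the metalloreductase Steap1 at 0.64 (SE 0.36) and to the mitochondrial iron importer Slc25a37 at −0.32 (SE 0.19). Cp read 77.4 and 97.9 in the null mice against 69.9 and 35.3 in controls, with the control female as the lowest array. Steap1 read 58.7 and 30.03 in the null mice against 17.8 and 27.9 in controls, with 3 of 4 arrays below the background guide of 34.4, so its difference has no settled size. Haem synthesis and breakdown was tested for 8 genes, 4 on each side of 0, and the 2 biliverdin reductases gave the smallest p, Blvrb at −0.61 (SE 0.28) and Blvra at −0.30 (SE 0.21), followed by Cpox at 0.23 (SE 0.22). Both reductases, which act after haem oxygenase, read lower in both null animals than in both controls, and the null male of Blvrb, at 33.3, lay below the background guide.

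Copper chaperones and enzymes numbered 10, with a median of −0.05 and 7 below 0. Ccs, the chaperone that delivers copper to superoxide dismutase 1, had the smallest p of these lists. It read 79.7 and 102 in the null mice against 201 and 177 in the control male and female, and both null arrays lay below both controls. The difference was −0.89 (SE 0.21), −1.04 between the males and −0.74 between the females, with an unadjusted p of 0.00433 and an adjusted p of 1 in limma. Sod1 and Mtf1 were outside the rule for named genes and were chosen after their values were seen. Sod1, the enzyme that Ccs loads, read 1477 and 1408 against 1709.5 and 1420, with overlap, and differed by −0.08. The next were Cox17, a copper chaperone of mitochondria, at 0.26 (SE 0.15) and Commd1, which takes part in copper export, at −0.39 (SE 0.23). Zinc sensing and zinc enzymes were tested for 6 genes, 5 of them below 0, with Car4, a membrane carbonic anhydrase, at −1.98 (SE 0.88), the alkaline phosphatase gene Akp3 at −0.52 (SE 0.36) and Tmc6 at −0.38 (SE 0.36). Car4 read 351 in the null male and 32.9 in the null female against 606 and 437, and differed by −0.68 between the males. The null female lay below the background guide of 34.4, so the size of the Car4 difference is not settled. The same holds for Tmc6, which read 18.03 in the null male. Mtf1, the zinc sensor of the metallothionein promoters, read 60.0 and 62.6 against 82.1 and 70.4, and differed by −0.21 (SE 0.23).

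Markers of cell types were read on the same arrays, and of those tested only Pla2g2a passed in limma. The summed normalized intensity of 5 goblet cell markers was 15100 to 15400 in the null animals and 11300 to 11700 in the controls. After normalization 5 of 5 were higher in both null animals than in both controls. Over all genes 14.4% were higher and 15.2% lower in this way. The deposited Fcgbp values overlapped, at 3312 and 2293 in null animals against 2429 and 1627 in controls. The summed normalized intensity of 9 enterocyte markers was 39400 to 40300 against 42000 to 42200, with 4 lower and 1 higher in both null animals. The 4 Paneth cell markers summed to 14400 to 14800 against 18900 to 19000, with 2 lower and 2 higher. Pla2g2a, at 292 and 550.4 against 5767 and 4907, fell by more than the gap between the sums. Lyz1 was lower as well, by −0.21, while Mmp7 at 1.22 and Itln1 at 0.26 were higher. The 5 distal intestine markers summed to 266 to 305 against 476 to 509. Of these Nts read 32.4, below the background guide, and 92.3 against 210.3 and 214, and Osr2 was lower in both null animals too. Fabp6 and Pyy overlapped, at 0.251 and 0.227 between the males and −0.465 and −0.373 between the females. Slc10a2, at 8.78 to 20.7, was too dim to test. The 7 proximal markers, with Lct counted here again, summed to 2970 to 3150 against 2850 to 4170, with overlap. Among them Gip was lower in both null animals, while Cck and Ghrl were higher. Cck read 182 and 206 against 146 and 90.8. Ghrl read 58.9 and 113 against 27.7 and 6.57, both controls below the background guide. The 5 macrophage markers, of which Cd68 and Cd163 read between 12.9 and 31.6 and were too dim to test, summed to 3140 to 3300 against 3300 to 3740. Lyz2 made most of that sum, at 2795 and 2575 against 3299 and 2884, while Csf1r was higher in both null animals, at 426 and 359 against 348.5 and 349. Adgre1 overlapped, at 57.1 and 68.6 against 83.2 and 59.4. The 6 smooth muscle markers summed to 2260 to 2880 against 2190 to 2270. The 3 erythroid markers gave 147 to 241 against 147 to 149, 4 hepatocyte markers 91.6 to 186 against 99.4 to 128 and 2 pancreatic acinar markers 361 to 653 against 320 to 361. Their part in the values of Mt2, Aco1, Slc39a8 and Ccs was not tested.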

How the data were processed

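The deposited values are intensities on a linear scale, 1 for each probe set of each array. RNA was isolated with a Qiagen kit and labelled with biotin, per the labels' protocols. For summary software, background correction and scaling the entry is: not given in the sources used here. The platform annotation gave 1 gene to 20380 of 22626 probe sets. Here arrays were quantile normalized, values below 0 were raised to 0, and log2 was taken with a pseudocount of 16, which understates changes of dim probe sets. Leaving out the dimmest 30% by mean over all arrays kept 15838 probe sets, with 45 of 52 member probe sets and all 34 member genes. Null and control arrays, 2 each, were compared in limma 3.58.1 under R 4.3.3 (lmFit, eBayes with an intensity trend, no covariate, two-sided), on 2 residual and 4.65 prior degrees of freedom. Benjamini-Hochberg adjustment ran over every probe set kept, at a threshold of 0.05. The code was tested on simulated data.

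Values in every array are given for members picked by role, for the 8 of smallest p or largest difference, and for any without overlap at 0.5 or more; Slc39a5, also picked, was not analysed here. Other pathway genes named are the 3 of smallest p per list. Members, lists and tests were chosen with earlier results of these data known. Alternatives covered pseudocount, scaling, filter, prior trend, sex as a block, the mean over a gene's probe sets and each array left out.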

Additional observations from a re-analysis of the deposited data

Results flagged for a closer look

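For Slc40a1 and Slc30a1 the male and the female pair lay on opposite sides of 0, each by at least 0.5 on the log2 scale. Slc40a1 differed by −0.767 between the males and 1.293 between the females, and Slc30a1 by 0.718 between the males and −0.716 between the females. That was 2 of 34 genes, or 5.88%, against 2.71% of all genes tested. With 1 pair of animals per sex, the difference between the sexes was not tested, and sex cannot be told apart from the individual animals. Each pair also holds a different control genotype.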

How the results depend on the processing

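No alternative brought a gene of metal handling past the threshold in limma. Of the 34 genes, 12 kept their sign under every alternative run, among them Mt2, Aco1 and Slc39a8, and 22 changed sign under at least 1, of which 19 only when an array was left out. The number of probe sets that passed was 2, and it became 29 with sex as a block, 1 without a trend in the prior, and 0 to 35 on leaving out 1 array, with 35 without the null male, 10 without the null female, 3 without the control female and 0 without the control male, where limma gave 205 with an unadjusted p under 0.05. The median over the 34 genes was 0.003, and −0.112 to 0.04 on leaving out 1 array. Without normalization Slc39a9 stood at −0.029, Slc30a1 at −0.035 and Atp7b at −0.026, and with a pseudocount of 1 Slc30a1 stood at −0.016. No scaling moved the median of all genes by more than 0.1. The log2 differences of the genes that changed sign on leaving out 1 array ranged as follows. They were Cybrd1 −0.06 to 0.438, Tfrc −0.437 to 0.399, Heph −0.153 to 0.038, Slc40a1 −0.691 to 1.206, Hfe −0.179 to 0.049 and Hmox2 −0.031 to 0.155. The ranges were Slc39a1 −0.039 to 0.397, Slc39a4 −0.405 to 0.651, Slc39a6 −0.641 to 0.119, Slc39a7 −0.026 to 0.124, Slc39a9 −0.091 to 0.102 and Slc30a1 −0.555 to 0.561. Further ranges were Slc30a2 −0.632 to 0.22, Slc30a3 −0.449 to 0.522, Slc30a4 −0.005 to 0.314, Slc30a5 −0.038 to 0.149, Slc30a6 −0.311 to 0.269 and Slc30a7 −0.39 to 0.309. The last were Mt1 −0.493 to 0.043, Slc31a1 −0.309 to 0.074, Atp7a −0.464 to 0.295 and Atp7b −0.183 to 0.218. Of those that kept their sign, Mt2 ranged from −1.308 to −0.416, Aco1 from −0.947 to −0.52, Slc39a8 from 0.577 to 0.955, Ireb2 from −0.554 to −0.165 and Slc30a9 from −0.712 to −0.082. With 1 array in a group, the spread comes from the other group alone. The lowest adjusted p of a member in limma, 0.0511 for Mt2, came from such a fit, without the null female, in which 16.8% of all genes had an unadjusted p under 0.05. The cause of these changes was not tested. Background sets the limit for the 5 genes with an array at or below 34.4.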
